A study of Mus musculus with 9 samples.

Results

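Tetraspanins are small proteins that cross the cell membrane several times and gather integrins, immunoglobulin proteins, sheddases and each other into membrane patches. They are known for roles in cell adhesion, migration, membrane fusion and the sorting of proteins into endosomes and exosomes, and in mice Cd9 and Cd81 are known to control the fusion of myoblasts. Here 10 tetraspanin genes, Cd9, Cd37, Cd63, Cd81, Cd82, Cd151, Tspan3, Tspan4, Tspan6 and Tspan31, were followed in primary culture of the stromal vascular fraction (SVF) of adipose tissue, the cells left once the fat cells are removed. They were picked by name as members of the family, with earlier results of these data known, and 20 other members are described further below. Each is a row of the array table that the annotation gives to that symbol alone, and each had exactly 1 such row, so the choice between rows was never needed; the table names 19938 genes in this way.

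The SVF came from subcutaneous adipose tissue of 10-week-old C57BL6/J mice and was kept in minimal growth medium with no other treatment, in every group alike. Beating (4 samples) stands for the spontaneously contracting colonies picked by hand on day 28, with the colonies of 2 or 3 dishes of a lot put together, and non-beating (4 samples) for the remaining cells, so neither is a purified cell type. Round is 1 pool of 6 round cells taken on day 14 with a cell-picking robot, without a replicate. Whether the samples of 1 group stem from separate mice or lots is not given in the sources used here, so each p-value measures the spread between these samples, which may be partly technical.

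Signals are log2 values of Affymetrix Mouse Gene ST arrays. Precision is limited by how few arrays there are. The medians of the 8 beating and non-beating arrays lay between 3.08 and 3.17 and that of the round array was 3.54. The labels were checked with marker genes. Of 10 striated muscle genes, 9 were higher in beating samples, and the mean of the list lay between 9.19 and 9.41 in beating, between 3.85 and 4.29 in non-beating and at 9.42 in round cells. Of 18 macrophage genes, Fcgr3 (adjusted p = 0.0311) and Mpeg1 (adjusted p = 0.0496) were lower in beating samples and the other 16 did not pass the test; all 18 differences were below 0. The macrophage list's mean was 3.45, 4.17, 4.41 and 5.37 in beating replicates 1 to 4, and 5.37, 6.64, 5.46 and 6.91 in non-beating replicates 1 to 4. Among 8 fibroblast genes 3 were lower in beating samples, where the list's mean lay between 6.96 and 7.43, against 7.68 to 8.41 in non-beating samples. Of the 8 differences 6 were below 0 and 2, those of Col1a1 and Col1a2, above 0. Over all rows 2.82% passed the test as higher and 3.34% as lower in beating samples. In such bulk samples fewer cells of a type and less RNA per cell cannot be told apart.

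None of the 10 tetraspanin genes passed the test between beating and non-beating samples, by limma with an adjusted p under 0.05 over all 33323 rows, where 6.16% of all rows did. At an unadjusted p under 0.05 there were 3, Cd82 with a positive and Cd81 and Tspan4 with negative differences (20.9% of all rows reached this), and by the two-sample test that the methods name, after the same adjustment, there were 0. The 10 differences, beating minus non-beating on the log2 scale, ran from -0.91 (Tspan4) to 0.57 (Cd82), with 4 above and 6 below 0 and a median of -0.16, against a median of 0.0073 over all rows. For 9 of the 10 genes the 95% interval of the difference lay within 2-fold in either direction, as it did for 87.8% of all rows, and Tspan4 was the exception. The standard errors of the differences ran from 0.059 to 0.25.

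**Figure D1:**
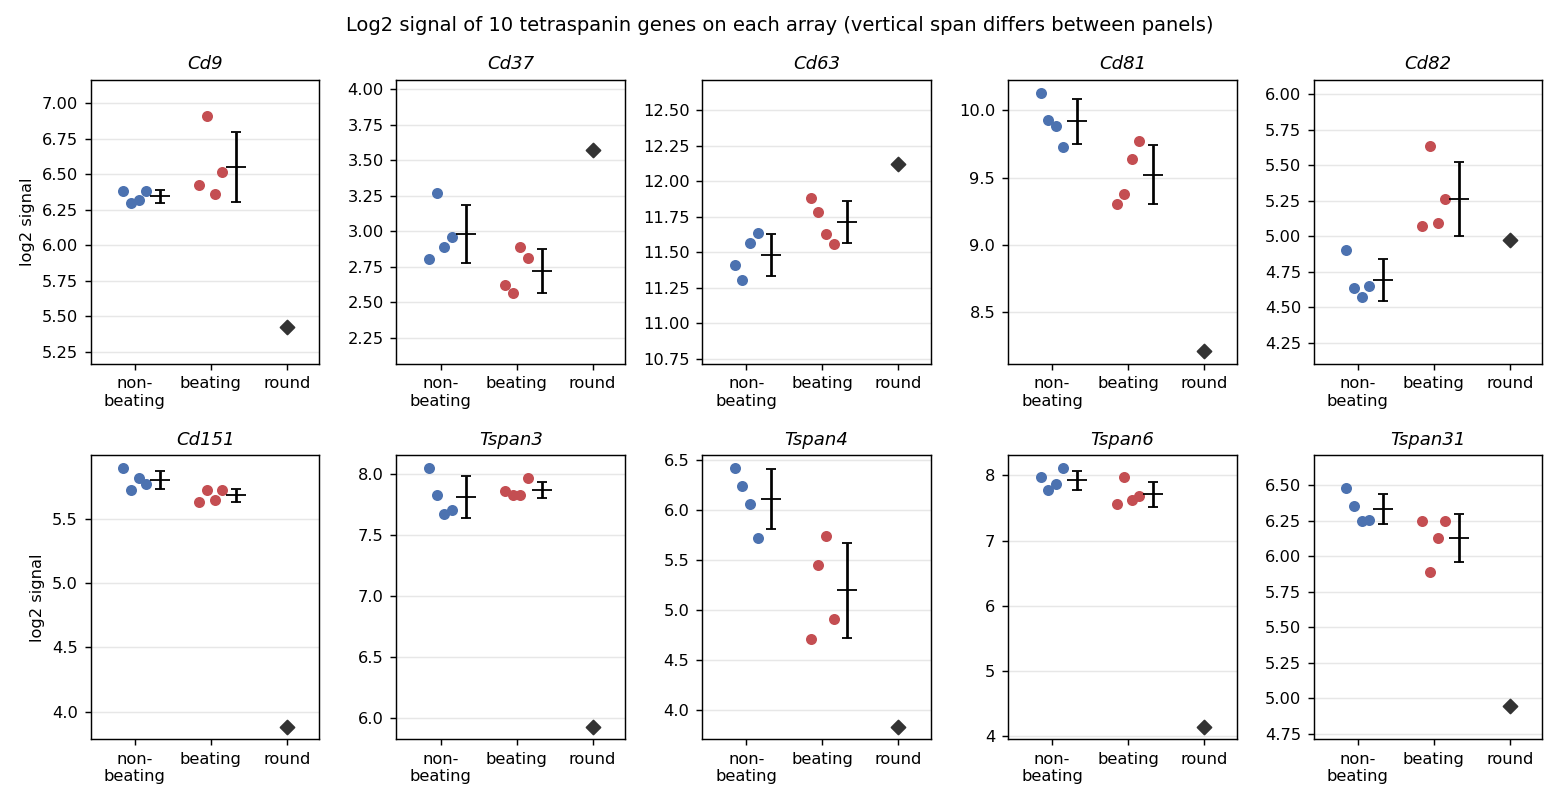
Log2 signal of each of the 10 tetraspanin genes on every array, with 4 non-beating (blue), 4 beating (red) and 1 round sample (black diamond); the horizontal mark and bar beside each group are its mean and SD. Beating and non-beating values of Cd82 do not overlap, those of Tspan4 overlap in 1 beating array, and 7 of the 10 round values lie below all other arrays of the gene.

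Cd82 (Entrez Gene 12521), known as a suppressor of metastasis and, in humans, as a surface marker of myogenic progenitor cells, came closest to the threshold. Its log2 signal was 5.07, 5.63, 5.09 and 5.26 in beating replicates 1 to 4 and 4.91, 4.64, 4.57 and 4.65 in non-beating replicates 1 to 4. Every beating value lay above every non-beating value, with the narrowest gap between beating replicate 1 and non-beating replicate 1; 5.98% of all rows separated the groups in this direction. The group means were 5.27 ± 0.26 and 4.69 ± 0.15 (SD, n = 4 each), a ratio of signals of 1.49 with a 95% interval from 1.19 to 1.85, and limma's adjusted p was 0.0501, just outside the threshold. The gene passed under 3 of 18 alternative settings, which were quantile normalization (adjusted p = 0.0401), dim rows left out (0.0296) and array weights (0.0300), and the adjusted p ran from 0.0296 to 0.135 over all of them.

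Tspan4 (Entrez Gene 64540), a protein of migrasomes, the vesicles that migrating cells leave on their retraction fibres, had the widest difference of the 10. Its log2 signal was 4.71, 5.45, 5.73 and 4.91 in beating replicates 1 to 4 and 6.41, 6.23, 6.06 and 5.72 in non-beating replicates 1 to 4. Beating replicate 3 lay just above non-beating replicate 4, and all other beating values lay below all non-beating values. The difference was -0.91 (standard error 0.25, 95% interval -1.47 to -0.34), a signal 1.87-fold higher in non-beating samples, with an adjusted p of 0.0747 by limma. It passed without beating replicate 3 (adjusted p = 0.0426), with dim rows left out (0.0407) and with a 1.5-fold prefilter (0.0323), and the adjusted p reached 0.181 over the 18 alternatives. In RefSeq the gene overlaps Chid1, and its row was given to Tspan4 alone.

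Cd81 (Entrez Gene 12520), a subunit of the B cell co-receptor and a partner of immunoglobulin proteins in many cell types, had a difference of the same sign. Its log2 signal was 9.30, 9.38, 9.64 and 9.77 in beating replicates 1 to 4 and 10.13, 9.93, 9.89 and 9.73 in non-beating replicates 1 to 4. The groups overlapped, since beating replicate 4 lay above non-beating replicate 4. The difference was -0.39 with a standard error of 0.13 (unadjusted p = 0.0146, adjusted p = 0.121, limma), and the adjusted p stayed between 0.0712 and 0.258 over 17 alternatives. The means of the fibroblast and macrophage lists were both lower in beating samples, though not every fibroblast gene was, as given above. The part of these lists in the differences of Tspan4 and Cd81 was not tested.

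Cd9 (Entrez Gene 12527), needed on the mouse egg for its fusion with sperm, and Cd81 are close relatives that form complexes with each other. The log2 signal of Cd9 was 6.43, 6.91, 6.36 and 6.52 in beating replicates 1 to 4 and 6.38, 6.30, 6.32 and 6.38 in non-beating replicates 1 to 4. Beating replicate 2 stood highest, and beating replicate 3 lay within the non-beating range. The difference was 0.21 with a 95% interval from -0.06 to 0.48 (adjusted p = 0.371, limma), so it did not pass and its sign differed from that of Cd81.

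The stretch before the start of these genes is shown since Cd9 and Cd81 were the only members of the 10 in which it held the letters CAGCTG, an E-box read by the myogenic helix-loop-helix factors. The letters read the same on both strands. They were present in 2 of the 15 annotated promoter windows of the 10 genes and in 13.0% of all 32851 windows of 250 bases, so the share among the tetraspanins is close to that of all promoters. In Cd9 the letters begin 25 bases before the start, in the window chr6:125494761-125495010 on the minus strand, and in Cd81 145 bases before it, in chr7:143052500-143052749 on the plus strand. Both are given 5′ to 3′ from RefSeq on GRCm38.p6 in lower case, with the E-box in capitals, and a match of letters is a description and shows no binding.
Cd9: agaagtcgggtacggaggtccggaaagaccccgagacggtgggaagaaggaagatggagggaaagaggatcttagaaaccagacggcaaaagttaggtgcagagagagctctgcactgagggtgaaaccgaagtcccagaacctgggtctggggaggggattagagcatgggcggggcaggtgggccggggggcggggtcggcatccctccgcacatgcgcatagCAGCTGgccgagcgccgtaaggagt
Cd81: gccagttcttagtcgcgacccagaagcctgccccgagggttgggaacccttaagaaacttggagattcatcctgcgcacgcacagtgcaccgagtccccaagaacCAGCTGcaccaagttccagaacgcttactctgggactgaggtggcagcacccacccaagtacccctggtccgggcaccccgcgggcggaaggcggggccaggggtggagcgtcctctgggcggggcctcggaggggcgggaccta

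Cd63 (Entrez Gene 12512), a protein of late endosomes and exosomes and a receptor of Timp1, had the values 11.88, 11.78, 11.63 and 11.56 in beating replicates 1 to 4 and 11.41, 11.31, 11.56 and 11.64 in non-beating replicates 1 to 4. The upper part of the non-beating range overlapped the lower part of the beating range. The difference was 0.23 (95% interval -0.0012 to 0.47, unadjusted p = 0.0509, adjusted p = 0.241, limma). Of 14 genes of the late endosome and of exosome formation, 2 were lower and 0 higher in beating samples at the threshold (3.34% and 2.82% of all rows). At an unadjusted p under 0.05 by limma, which 20.9% of all rows reached, 8 had negative and 2 positive differences. The median difference of the 14 was -0.33. Lamp2, a lysosomal membrane protein, was 1.37-fold lower in beating samples. Its log2 signal lay between 9.57 and 9.59 there and between 9.94 and 10.14 in non-beating samples (difference -0.46, standard error 0.066, adjusted p = 0.00712, limma), and it kept its call under all 17 alternatives. Vps4b, an ATPase that takes part in vesicle budding into endosomes, was 1.71-fold lower (adjusted p = 0.0277), with a second row at a difference of -0.50 (adjusted p = 0.0498). The call of the first row was lost under 7 of 18 alternatives, with adjusted p up to 0.0886, among them leaving out beating replicate 2 or any 1 non-beating replicate. So the sign for Cd63 was opposite to that of most of these genes, and the difference between them was not tested.

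Cd151 (Entrez Gene 12476) binds the laminin-binding integrins. Its values lay between 5.64 and 5.73 in beating and between 5.73 and 5.90 in non-beating samples, and the groups did not overlap, by a gap of about 0.001 (8.24% of all rows separated the groups in this direction). The difference of -0.12 had an adjusted p of 0.297 (limma). Of 16 measured partners of tetraspanins (integrins, immunoglobulin proteins, sheddases and others), Itga4 and Itga7 were higher and Adam17 was lower in beating samples. Over all rows 2.82% were higher and 3.34% lower, and 13 of the partners did not pass the test. Itga7, the alpha subunit of the laminin receptor of skeletal and heart muscle, had the log2 signals 4.75, 4.02, 4.21 and 4.71 in beating replicates 1 to 4, all above the non-beating range of 2.66 to 2.90 (3.18-fold, adjusted p = 0.00137, limma). Itga4, the alpha subunit of a receptor for Vcam1 and fibronectin, was 6.71-fold higher, at 6.55, 7.17, 6.13 and 6.89 against 3.68, 3.79, 3.56 and 4.72 (adjusted p = 0.00208, limma). The common beta subunit, Itgb1, had a difference of -0.10 (adjusted p = 0.701). Adam17, a sheddase of cytokines and growth factors, had a difference of -0.43 (adjusted p = 0.0412), and this call was lost under 11 of 17 alternatives, with adjusted p up to 0.107; all single arrays but beating replicate 4 were among those whose removal ended it.

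Tspan3, needed in mice for the growth of some myeloid leukaemias, had the smallest difference of the 10. Its log2 signal lay between 7.82 and 7.96 in beating and between 7.67 and 8.04 in non-beating samples, so the beating range fell inside the non-beating range (difference 0.06, 95% interval -0.15 to 0.27, adjusted p = 0.788, limma). Tspan6, which dampens antiviral signalling in human cells, lay between 7.56 and 7.98 in beating and between 7.77 and 8.11 in non-beating samples (difference -0.22, adjusted p = 0.324). The highest beating value of Tspan6, in replicate 2, was above 3 of the 4 non-beating values.

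Tspan31 lies next to Cdk4, a kinase of the cell cycle, on chromosome 10 and overlaps it in RefSeq. The log2 signal of Tspan31 was 6.25, 5.89, 6.13 and 6.25 in beating replicates 1 to 4 and 6.48, 6.35, 6.25 and 6.25 in non-beating replicates 1 to 4. The groups met at a value that 3 arrays shared exactly, beating replicates 1 and 4 and non-beating replicate 3. Its difference was -0.21 (standard error 0.098, adjusted p = 0.286, limma) and that of Cdk4 was -0.24 (adjusted p = 0.230), so neither passed. Cd37, Tspan3 and Tspan31 each had a value that was the same on several of the 8 arrays, as did 48.9% of all rows.

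Cd37 (Entrez Gene 12493), a tetraspanin of B cells and other leukocytes, was the only one of the 10 whose mean lay below that of the median row, 3.12. Its values were 2.62, 2.56, 2.89 and 2.81 in beating replicates 1 to 4 and 2.80, 3.27, 2.89 and 2.96 in non-beating replicates 1 to 4. The groups overlapped, with non-beating replicate 2 highest (difference -0.26, standard error 0.12, adjusted p = 0.267, limma). Of 7 measured lymphocyte markers 0 passed the test and 0 had an unadjusted p under 0.05, and the mean of the list lay between 2.50 and 2.65 in beating and between 2.51 and 2.60 in non-beating samples. Cd53, a tetraspanin of leukocytes outside the 10, had the values 6.11, 6.95, 6.88 and 7.34 in beating replicates 1 to 4 and 7.29, 8.78, 7.34 and 8.88 in non-beating replicates 1 to 4. Non-beating replicates 2 and 4 were highest both for Cd53 and for the macrophage list, and beating replicate 1 was lowest for both. The difference of Cd53 was -1.25 (standard error 0.44, unadjusted p = 0.0221, adjusted p = 0.152, limma); it passed with the 1.5-fold prefilter only (adjusted p = 0.0389), 1 of 18 alternatives. The part of macrophage RNA in it was not tested.

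Of the other tetraspanins of the family, 20 of the 21 listed had a row. Of these, 4 were higher and 0 lower in beating samples (against 2.82% and 3.34% of all rows). At an unadjusted p under 0.05 by limma there were 8 (20.9% of all rows), and 2 were higher by the adjusted two-sample test. The median difference of the 20 was 0.10. Beating and non-beating values did not overlap for 9 of the 20, of which 8 had beating higher, against 14.2% and 5.98% of all rows. Among the 10 genes of the first set the groups did not overlap for 2. Of the 20 genes, 8 had a mean below that of the median row.

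Tspan13 was 4.78-fold higher in beating samples, the widest difference in the family. Its log2 signal was 7.72, 6.51, 6.27 and 6.64 in beating replicates 1 to 4 and 4.48, 4.29, 4.23 and 5.11 in non-beating replicates 1 to 4. Beating replicate 1 stood about 1 log2 unit above the other beating samples, and the lowest beating value was above the highest non-beating value (difference 2.26, standard error 0.33, adjusted p = 0.00784, limma). Tspan12, which in the retina assists the receptor of Norrin, was 1.85-fold higher, at 6.64 to 6.72 against 5.68 to 5.87 (adjusted p = 0.000137, limma). The calls of Tspan12 and Tspan13 held under all 17 and all 18 alternatives. Tspan9, a tetraspanin of platelets, had the values 5.30, 5.56, 5.26 and 5.59 in beating and 4.78, 4.53, 4.89 and 4.88 in non-beating replicates 1 to 4 (difference 0.66, standard error 0.11, adjusted p = 0.0155, limma), and it did not pass by the two-sample test after adjustment or with replicate number as a block, where the adjusted p reached 0.0614.

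Tspan14 belongs with Tspan5, Tspan10, Tspan15, Tspan17 and Tspan33 to the branch of the family that guides the sheddase Adam10. Its values lay between 4.35 and 4.57 in beating and between 4.10 and 4.28 in non-beating samples (1.24-fold higher, adjusted p = 0.0397, limma). This call was lost under 11 of 17 alternatives, with adjusted p up to 0.143; leaving out any single array but beating replicate 2 ended it. The other genes of the branch did not pass and had differences from -0.23 (Tspan5) to 0.28 (Tspan33, which passed without non-beating replicate 1, adjusted p = 0.0491), and Adam10 itself had means of 6.77 ± 0.65 for beating and 7.44 ± 0.26 for non-beating (SD, n = 4 each, adjusted p = 0.263). Tspan5, among the brightest of the other tetraspanins, ranged from 5.42 to 6.43 in beating and from 5.93 to 6.59 in non-beating samples (adjusted p = 0.635), and Tspan17 had an adjusted p of 0.418.

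**Figure D2:**
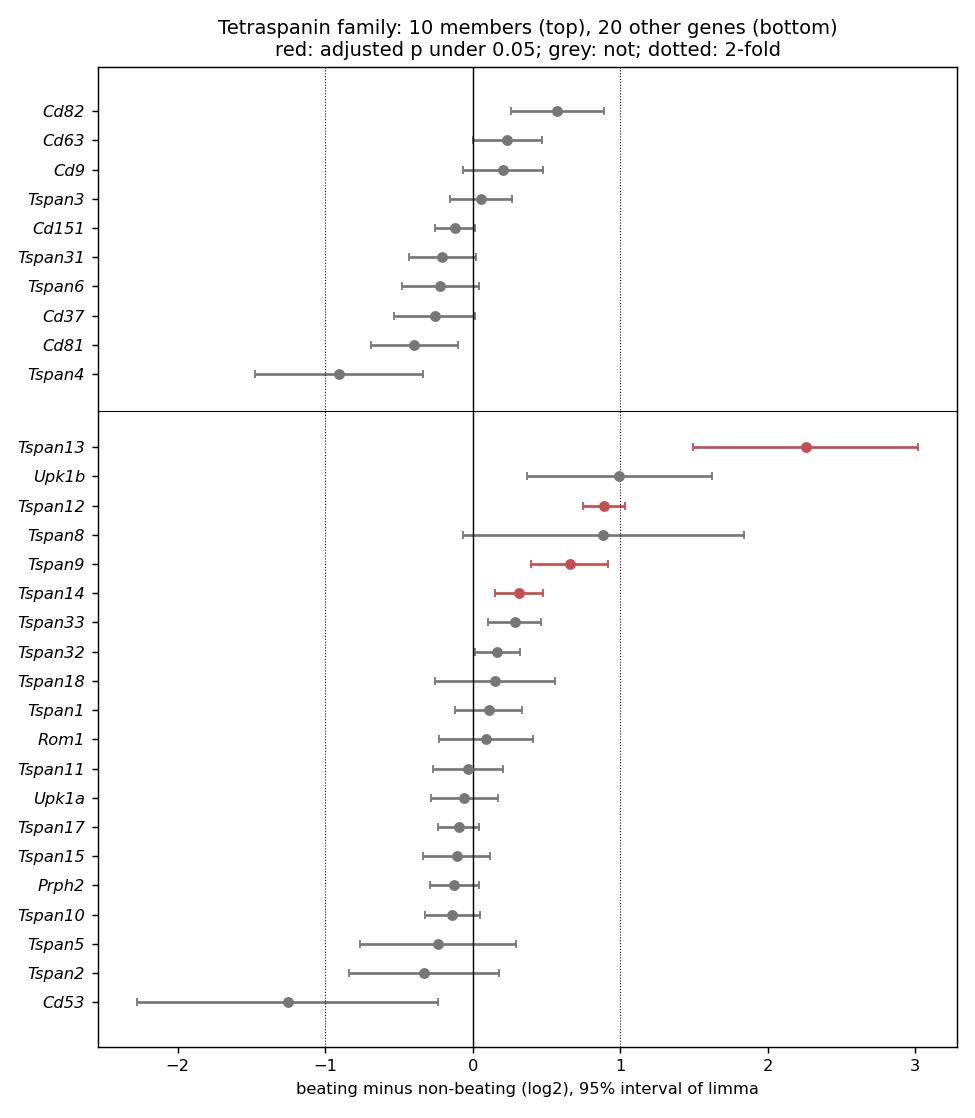
Difference of log2 signal, beating minus non-beating, for the 10 tetraspanin genes (upper block) and 20 other tetraspanins (lower block), with limma's 95% interval (4 samples a group); red marks an adjusted p under 0.05 and dotted lines mark 2-fold. The 4 red genes, Tspan9, Tspan12, Tspan13 and Tspan14, are all in the lower block and all above 0, and the interval of Cd82 starts at 0.26.

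**Figure D3:**
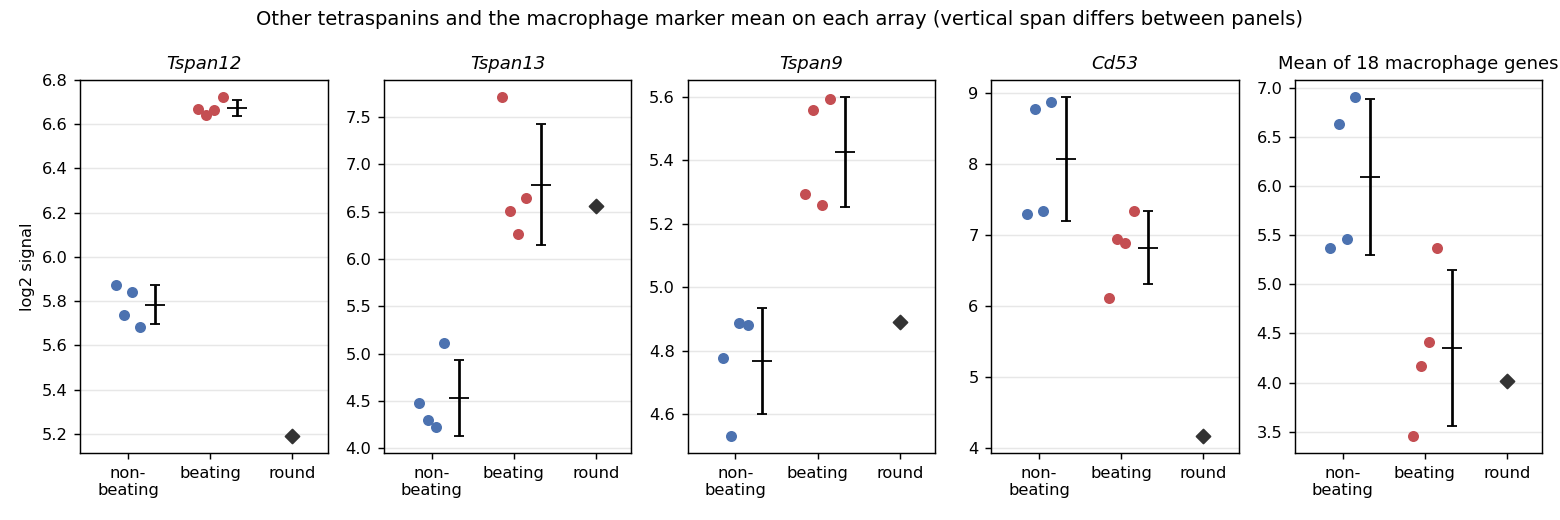
Log2 signal of Tspan12, Tspan13, Tspan9 and Cd53 and the mean of the 18 macrophage markers on each array, for 4 non-beating (blue), 4 beating (red) and 1 round sample (black diamond), with the mean and SD beside each group. Tspan12, Tspan13 and Tspan9 separate the groups, and non-beating replicates 2 and 4 are highest both for Cd53 and for the macrophage mean.

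In the round pool 7 of the 10 genes, Cd9, Cd81, Cd151, Tspan3, Tspan4, Tspan6 and Tspan31, lay below all 8 other arrays, which 24.4% of all rows did. Cd37 and Cd63 lay above all 8, as 46.4% of all rows did, and Cd82 lay between the groups. The pool is a single array of another day and of few cells, and it is described here without an error or a test. Round minus the non-beating mean had a median of -1.55 over the 10 genes and of 0.22 over all rows, but this shift depended on level. Among the brightest 25% of all rows, to which 8 of the 10 genes belong, its median was -1.29, with 50% of the rows between -2.50 and -0.29.

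Tspan6 lay below and Cd63 above that middle 50% of the brightest rows, a range outside which as many of these rows lie as inside. The round value of Tspan6 was 4.14, against means of 7.93 ± 0.15 for non-beating and 7.71 ± 0.19 for beating (SD, n = 4 each), so that it differed by -3.79 from the former. Cd63 was at 12.12 in the round pool, 0.64 above the non-beating mean, and above the middle 50% of the brightest rows, a class that spans mean signals from 5.00 to 13.54. Tspan4 was at 3.84, Cd151 at 3.88, Tspan3 at 5.93, Cd81 at 8.22, Tspan31 at 4.94 and Cd9 at 5.42. Their differences from their non-beating means ran from -2.27 to -0.92, inside the middle 50% of the brightest rows. The round values of Cd82, 4.97, and Cd37, 3.57, were 0.28 and 0.59 above their non-beating means. After rescaling the 9 arrays, the sign against the non-beating mean was the same under median centring and under quantile normalization for 8 of the 10 genes. It turned for Cd9 under quantile normalization (0.12) and for Cd82 under median centring (-0.17). For Cd63 the difference of 0.64 became 0.19 under median centring and 0.66 under quantile normalization. Among the other tetraspanins, Tspan13 was at 6.56 in the round pool, inside its beating range, while Cd53 was at 4.16, below all 8 other arrays. The macrophage list's mean was 4.01 in the round pool, inside that list's beating range of 3.45 to 5.37.

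**Figure D4:**
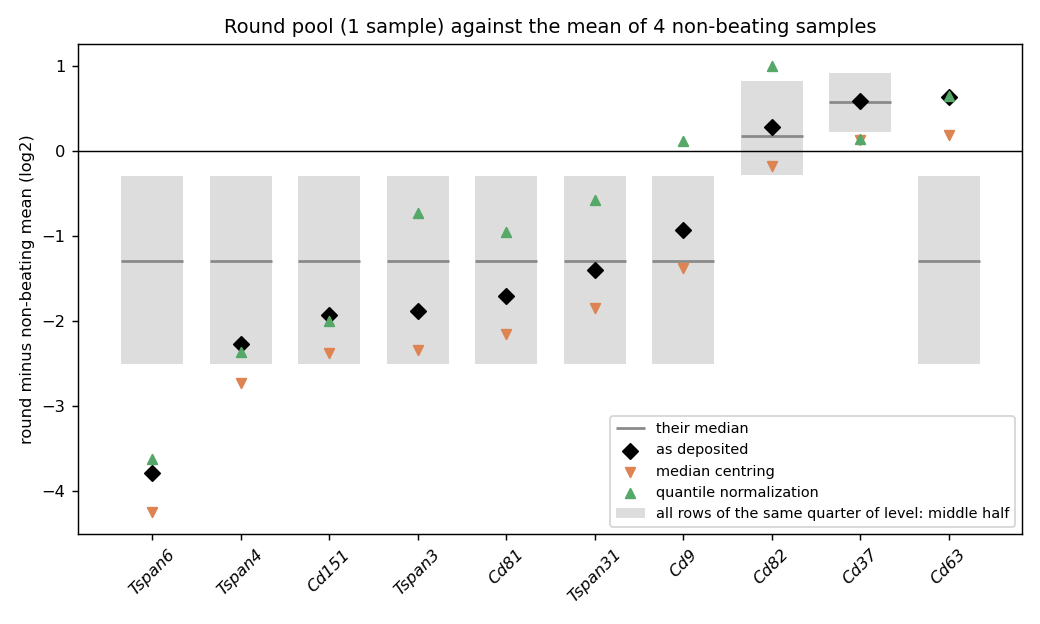
Round pool (1 sample) minus the mean of the 4 non-beating samples on the log2 scale for the 10 tetraspanin genes, as deposited (diamonds), after median centring (downward triangles) and after quantile normalization (upward triangles); grey bars span the middle 50% of all rows in the same level class and grey lines their median. Tspan6, at -3.79, lies below its grey bar, and Cd63, at 0.64, above it.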

How the data were processed

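Log2 signals of Affymetrix Mouse Gene ST arrays were taken as deposited for 4 beating, 4 non-beating and 1 round sample. The authors scaled raw data to log2, normalised and mean-centred them in BRB-ArrayTools 4.6.0; how the deposited log2 table was summarised from probes, and its genome build, are not given in the sources used here. Of 33323 rows, 21789 carry 1 gene symbol, 1621 several and 9913 none. The comparison of the 8 beating and non-beating arrays used lmFit and eBayes of limma 3.58.1, run in R 4.3.3 (two-sided, Benjamini-Hochberg adjustment over all rows, call at an adjusted p under 0.05), after the fit was tested on simulated data. The tetraspanins and all gene lists were chosen with earlier results of these data known. Named are the 10 genes, called genes and the brightest of the other tetraspanins, up to 4 called genes of each other list, and Cdk4; Itgb1, Adam10 and the relatives of Tspan14 were named after their values were seen. Lists of 7 smooth muscle, 8 adipocyte, 7 endothelial and 5 Schwann cell markers with a row were also counted. In turn 1 higher, 3 lower, 0 and 1 higher passed, against 2.82% higher and 3.34% lower over all rows. The smooth muscle gene that passed was Des, and 6 of the 7 differences of that list were below 0. The Schwann cell gene that passed was Erbb3, and 4 of the 5 differences of that list were below 0. Alternatives covered scaling, filters, variance model, array weights, the two-sample test of the methods, a prefilter that kept the 7976 rows with a value at least 1.5-fold from the row median (a rule of the study, which kept a different number), a replicate block, the round pool in the fit, rows averaged per gene and leaving out each array. The round pool has no test. Tspan7 was not analysed here.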

Additional observations from a re-analysis of the deposited data

Results flagged for a closer look

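Within each group of 4 samples, the highest or lowest array was set against the others by Dixon's criterion at the 95% level for 61 genes, the 10 tetraspanins among them, in 122 groups. Chance marks about 1 in 20 groups where no value repeats, and this rate does not hold for groups with repeated values. None of the 10 tetraspanins had such an array, and 11 groups of other genes did.

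Tspan8, a tetraspanin of epithelia, was at 5.61 in beating replicate 1 and between 3.59 and 3.85 in the other beating samples. Hgs, an endosomal sorting protein, was at 4.85 in beating replicate 1 against 4.65 to 4.67, and Rab7, a regulator of late endosomes, at 9.11 in non-beating replicate 4 against 9.39 to 9.42. Beating replicate 2 was lowest for Tspan10 (2.74) and for Prph2 (2.36). Beating replicate 3 was lowest for Epcam (2.38), as was non-beating replicate 3 (2.41). Non-beating replicate 4 was lowest for Tspan1 (2.01) and Tspan11 (3.62), non-beating replicate 2 for Upk1a (2.77), and non-beating replicate 1 was highest for Tspan10 (3.19). For Tspan11, Upk1a and Epcam in non-beating samples the other 3 arrays held 1 identical value. In such a group any different value is marked, however small the gap. These genes were named after their values were seen.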

How the results depend on the processing

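The count of called tetraspanins, 0 of 10, became 1 with quantile normalization and 1 with array weights (Cd82 both times), 2 with dim rows left out (Cd82 and Tspan4) and 1 with the 1.5-fold prefilter (Tspan4), and lay between 0 and 1 when single arrays were left out. The prefilter left 2 of the 10 genes in the fit and the filter on dim rows left 9. No difference of the 10 genes changed sign under any alternative, other than that of Tspan3 under 1. The other tetraspanins went from 4 calls to 2 with the two-sample test and to 2 with the replicate block, all higher. The prefilter left 6 of the 20 in the fit, and Tspan9, Tspan12 and Tspan14 were not among them. In that fit Tspan13 and Upk1b were higher and Cd53 lower, 2 and 1. The late endosome genes went from 2 calls to 4 with median centring, 4 with dim rows left out, 1 with the two-sample test, 1 with the prefilter and 1 with the replicate block, and between 1 and 4 when single arrays were left out (4 without beating replicate 4, 1 without beating replicate 2 or any 1 non-beating replicate). The prefilter left 4 of the 14 late endosome genes and 7 of the 16 partners in the fit. The partners had 3 calls, 2 higher and 1 lower, and 3 higher and 0 lower with quantile normalization, the prefilter and the replicate block. The cause of these moves was not tested. Deviations of same-numbered samples correlated between -0.012 and 0.028 over all rows, and those of other pairs between -0.053 and 0.080. The methods took non-beating cells from the dishes of the picked colonies, so a shared dish or lot is possible. These correlations cannot decide whether samples pair, and the main fit was unpaired. With number as a block 1282 rows were called in place of 2054, and none of the 10 genes passed. The adjusted p by limma was then 0.113 for Cd82 and 0.114 for Tspan4. Over all rows, 940 were higher and 1114 lower, against 837 and 1617 with median centring, and the two-sample test called 866. No measure of background or detection was used, so how far a signal stood above background was not tested.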
